A study of Homo sapiens with 34 samples.

Results

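The clustered protocadherins are the protein-coding genes on chromosome 5q31 whose symbols start with PCDHA, PCDHB or PCDHG, chosen by symbol and position from the RefSeq table of GRCh38.p14 (hg38). They numbered 53 of the 19974 protein-coding genes on the autosomes and the X chromosome, with 15 alpha, 16 beta and 22 gamma members. With 2 kb on each side they occupy chr5:140784140-141514975, a stretch of 730836 bp. The alpha members lie in chr5:140786140-141012347, the beta members in chr5:141051374-141249365 and the gamma members in chr5:141330514-141512975. Their signal was read from 34 CUT&Tag libraries, 1 peak list each, made with an antibody raised in rabbit against what the labels name H3K9me, with no degree of methylation given. CUT&Tag uses an antibody to guide a transposase to chromatin that carries a mark, so a peak is a place where tagged fragments pile up over the local background.

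The libraries came from COLO320 DM, a colorectal adenocarcinoma line, and PC3 DM, a prostatic adenocarcinoma line. Both lines are known for MYC copies on extrachromosomal DNA, and the study perturbed elements that its labels name ecSE and a number. COLO320 DM gave 18 libraries, 3 each for the plasmids ecSE1, ecSE2, ecSE3, ecSE4 and ecSEcombo and 3 for the vector. PC3 DM gave 16 libraries, 3 each for ecSE1, ecSE2, ecSE6 and ecSEcombo, 2 for ecSE7 and 2 for the vector. Every library, the vector ones included, was made from 50000 nuclei of cells that had received 700 ng of sgRNA plasmid and were collected 3 days later, with Lipofectamine 3000 for COLO320 DM and Lipofectamine LTX for PC3 DM. The labels do not state where the elements lie, what the combination covers or which effector the cells carried. They do not say whether replicates are separate cultures, and p-values therefore reflect library-to-library spread that may be technical.

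Clustered protocadherins are cell-surface adhesion proteins, best known for giving each neuron its own combination of isoforms and so a means of telling itself from its neighbours. Each alpha and gamma member has its own first exon with its own promoter, spliced to constant exons shared by its family, while each beta member stands alone without shared exons. Promoter choice depends on DNA methylation and on CTCF and cohesin, which bind most of these promoters at a conserved element with the core CGCT. In mouse neurons the cluster is also covered by H3K9 methylation placed by the enzyme SETDB1. The C-type members PCDHAC1, PCDHAC2, PCDHGC3, PCDHGC4 and PCDHGC5 sit at the ends of the alpha and gamma arrays and are regulated apart from the others.

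Promoters are shown for the 4 members whose window was overlapped by a peak in more than 1 library, PCDHA6, PCDHA9, PCDHA12 and PCDHB15, and for PCDHGA5, the gamma member marked in the most libraries. Each window runs from 250 bases before to 50 bases after the start, on the plus strand of GRCh38.p14, from RefSeq, and capitals mark CGCT or its reverse complement AGCG. The windows are chr5:140827710-140828009, chr5:140848132-140848431, chr5:140875058-140875357, chr5:141245145-141245444 and chr5:141363912-141364211, in that order.
PCDHA6: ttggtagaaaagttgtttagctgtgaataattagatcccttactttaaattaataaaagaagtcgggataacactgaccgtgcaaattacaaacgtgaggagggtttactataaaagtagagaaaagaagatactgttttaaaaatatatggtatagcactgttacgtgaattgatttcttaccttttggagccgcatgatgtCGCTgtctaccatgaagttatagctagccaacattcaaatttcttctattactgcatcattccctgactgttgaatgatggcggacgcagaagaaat
PCDHA9: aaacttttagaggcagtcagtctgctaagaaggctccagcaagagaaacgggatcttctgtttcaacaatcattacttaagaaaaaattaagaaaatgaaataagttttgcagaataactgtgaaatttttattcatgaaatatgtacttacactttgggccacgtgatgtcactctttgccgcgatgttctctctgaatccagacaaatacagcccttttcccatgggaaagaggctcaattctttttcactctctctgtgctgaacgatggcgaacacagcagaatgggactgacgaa
PCDHA12: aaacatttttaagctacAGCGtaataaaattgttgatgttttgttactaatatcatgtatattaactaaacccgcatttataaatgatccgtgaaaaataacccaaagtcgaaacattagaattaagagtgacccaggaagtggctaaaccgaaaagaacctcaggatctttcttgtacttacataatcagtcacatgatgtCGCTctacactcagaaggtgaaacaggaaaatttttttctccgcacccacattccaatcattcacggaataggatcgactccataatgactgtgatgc
PCDHB15: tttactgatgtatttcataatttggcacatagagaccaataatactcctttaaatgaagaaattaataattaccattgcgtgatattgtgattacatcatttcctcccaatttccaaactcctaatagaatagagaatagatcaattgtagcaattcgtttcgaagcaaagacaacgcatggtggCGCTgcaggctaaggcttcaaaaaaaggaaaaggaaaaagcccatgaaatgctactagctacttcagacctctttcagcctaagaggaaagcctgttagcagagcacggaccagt
PCDHGA5: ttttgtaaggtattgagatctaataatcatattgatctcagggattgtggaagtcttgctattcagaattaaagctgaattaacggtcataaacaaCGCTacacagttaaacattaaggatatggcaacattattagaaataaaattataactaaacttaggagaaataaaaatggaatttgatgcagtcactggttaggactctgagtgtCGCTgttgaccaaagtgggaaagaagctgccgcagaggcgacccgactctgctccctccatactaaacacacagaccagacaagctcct
RefSeq promoter windows were at hand for 47 of the 53 members, 52 windows in all because several members have more than 1 start, and PCDHA3, PCDHA13, PCDHB6, PCDHB11, PCDHGA12 and PCDHGC5 were without one. CGCT, read on both strands and with no other motif searched, was present in 51 of the 52 windows (98.1%), against 79.7% of 22104 windows of other protein-coding genes. The window without it was that of PCDHA9. The median number of CGCT per window was 2 in the members and 2 in the other genes, with 1 in alpha, 1 in beta and 3 in gamma windows. The member windows held a median of 7.5 CG dinucleotides, against 21 in the others, and the C-type windows held 27 for PCDHAC1, 15 for PCDHAC2, 18 for PCDHGC3, and 23 and 24 for PCDHGC4. Some other gamma windows were in the same range, with 16 and 25 for PCDHGB6 and 14 and 19 for PCDHGB5.

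Few libraries had a peak on these promoters. In COLO320 DM, 4 of the 52 windows (7.69%) were overlapped by a peak, against 2.39% of the windows of other genes, and all 4 come from a single library, ecSE1 replicate 2, the longest list. In PC3 DM the number was 9 of 52 (17.3%), against 4.38% of the windows of other genes, spread over 7 of the 16 libraries. The most recurrent was the PCDHA6 window, in 3 PC3 DM libraries. PCDHA9 and PCDHB15 had 1 library of each line, and PCDHA12 had 2 PC3 DM libraries. The mean percentage of member windows with a peak in a library was 0.427 ± 1.81 in COLO320 DM (SD, n = 18) and 1.44 ± 2.05 in PC3 DM (SD, n = 16). For the windows of other genes the percentage was 0.194 ± 0.190 in COLO320 DM, against 0.312 ± 0.171 in PC3 DM. In both lines the SD of the member value over libraries is larger than its distance from the other genes, and that distance was not tested. Without ecSE1 replicate 2 the COLO320 DM member value was 0, against 0.151 for other genes.

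The stretch as a whole carried 478 peaks over the 34 lists, 207 in COLO320 DM, against 271 in PC3 DM. A COLO320 DM library had 2 at the lowest, 9 at the median and 51 at the highest, and a PC3 DM library had 4, 12 and 55. The highest numbers were those of the 2 longest lists, COLO320 DM ecSE1 replicate 2 and PC3 DM ecSEcombo replicate 1. These are weak to middling peaks: none was among the best 100 of its list, and 3 in COLO320 DM, against 9 in PC3 DM, were among the best 1000. The authors' fold enrichment over local background had a median of 4.65 in COLO320 DM, against 5.11 in PC3 DM. The fragments at the summit, recovered from the deposited fold and p-value for 478 of 478 peaks, had a median of 15 in COLO320 DM, against 11 in PC3 DM. The strongest by fold was in the gene body of PCDHB3 in PC3 DM ecSEcombo replicate 1, at 15.7-fold with 33 fragments.

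**Figure D1:**
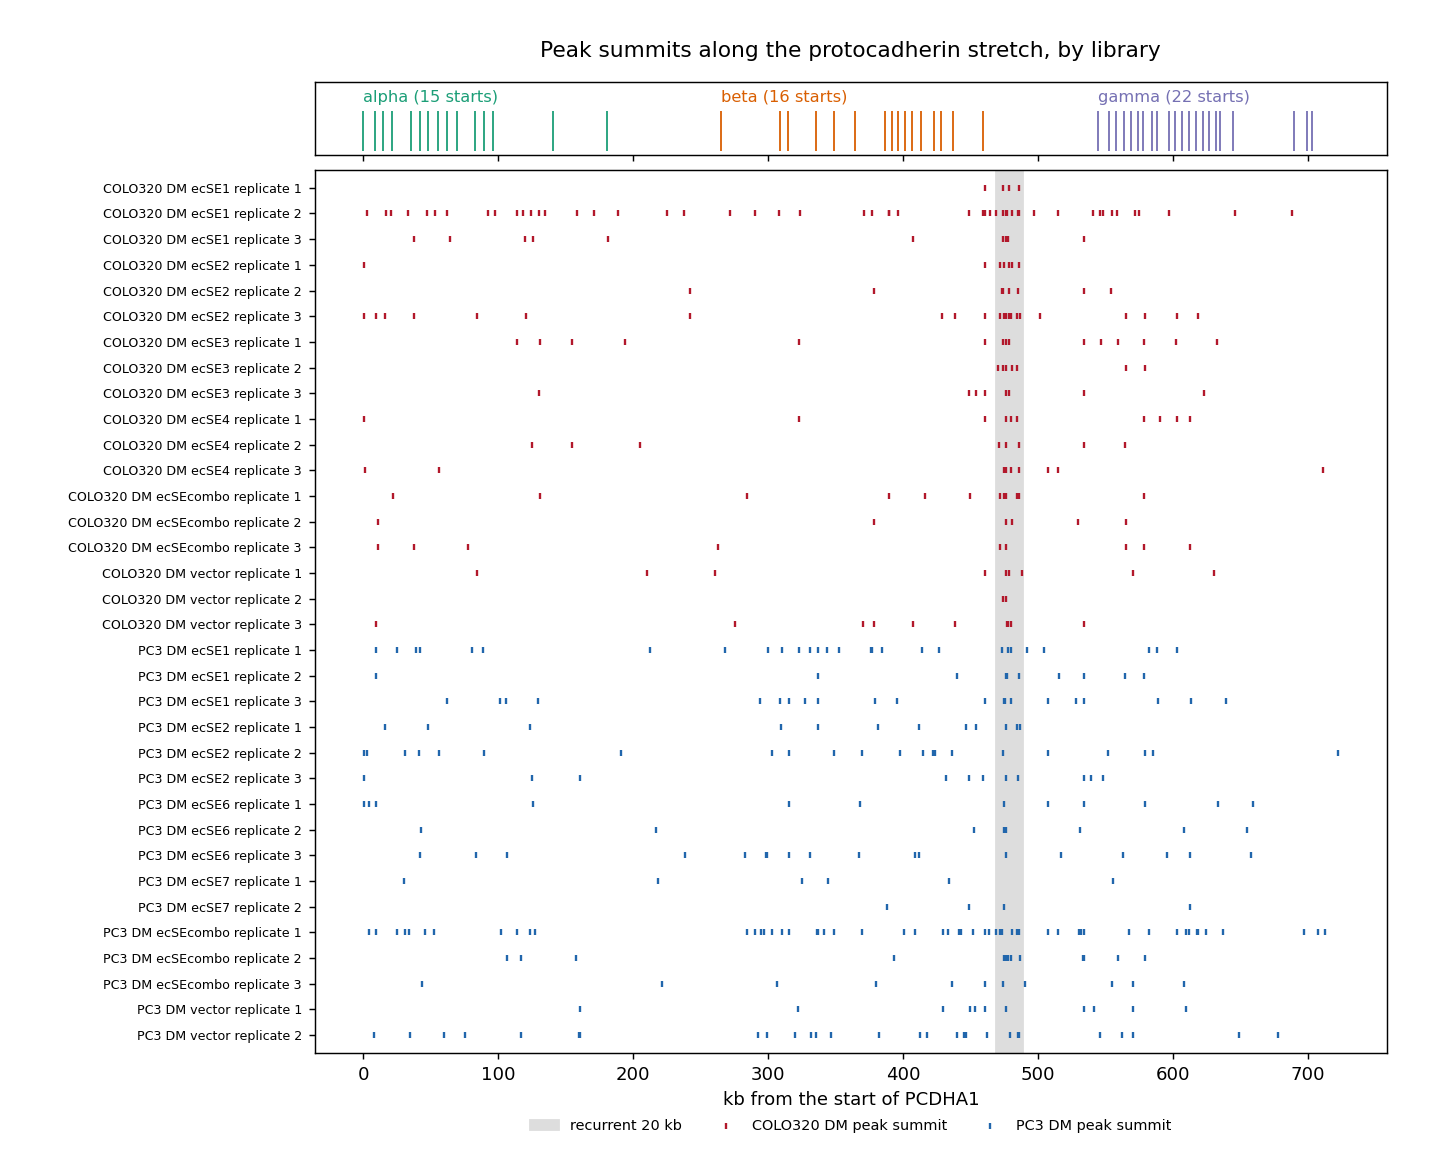
Summits of all peaks in the protocadherin stretch, 1 row per library, against the distance in kb from the start of PCDHA1, with member starts as ticks above and COLO320 DM rows above PC3 DM rows. The grey band between the beta and gamma starts holds a summit in 18 of 18 COLO320 DM libraries and 15 of 16 from PC3 DM, while summits elsewhere differ from library to library.

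Set against the rest of the genes, the stretch, with the gaps between its members included, was dense in peaks. The density of the stretch, as summits per Mb, had a median over libraries of 13.0 in COLO320 DM, against 4.22 in the territory of all other protein-coding genes with 2 kb on each side. That territory leaves out the space between genes, so the 2 are not alike. The gap between beta and gamma, 11.1% of the stretch, held 38.6% of its COLO320 DM and 22.9% of its PC3 DM summits. In PC3 DM the medians were 17.1 in the stretch and 7.44 in the other genes. The mean log2 ratio was 1.42 ± 0.34 in COLO320 DM (SD, n = 18) and 1.25 ± 0.47 in PC3 DM (SD, n = 16), which is 2.68-fold and 2.38-fold. The stretch was the denser one in 18 of 18 COLO320 DM libraries and 16 of 16 from PC3 DM (two-sided sign-flip permutation test over libraries, 100000 resamples, p = 2.00e-05 in each line, adjusted p = 2.40e-05 over 6 comparisons). Both p-values are estimates from resamples, and that of PC3 DM lies below the smallest an exact test of 16 libraries could give. The test reads whether libraries agree on the direction for this 1 stretch. How often other stretches of the genome lie as far from the average was not tested.

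Other gene families that repeat along a chromosome gave a scale for this density. ZNF genes on chromosome 19, which encode zinc finger proteins and are a known target of H3K9 methylation, were denser still. The log2 ratio of the protocadherin stretch to them was -1.19 ± 0.48 in COLO320 DM and -0.95 ± 0.45 in PC3 DM, with the stretch denser in 0 of 18 and 0 of 16 libraries (permutation test, adjusted p = 2.40e-05 in each). Here too the PC3 DM value is a resampled estimate below what an exact test could give. Against the olfactory receptor genes on chromosome 11 the log2 ratio was 1.46 ± 0.77 in COLO320 DM, positive in 18 of 18 libraries (permutation test, adjusted p = 2.40e-05). In PC3 DM it was 0.62 ± 0.69, positive in 12 of 16 libraries (permutation test, adjusted p = 0.00227). The receptor genes held few summits, 205 over all COLO320 DM libraries with 1 at the lowest, and 412 in PC3 DM with 4 at the lowest. The ratio of a single library to them is therefore coarse. With a recurrent 20 kb between the beta and gamma genes left out, a choice made after seeing the data that lowers the density of the stretch by construction, COLO320 DM gave 0.66 against other genes (permutation test, adjusted p = 0.00712), -1.96 against the ZNF genes and 0.70 against the receptor genes. The same omission in PC3 DM gave 1.05, -1.16 and 0.41, and the comparisons with other genes and with the receptor genes still passed the threshold of 0.05 in both lines.

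The most recurrent place in the stretch holds none of the 53 members. It is the 20 kb at chr5:141255001-141275000, between PCDHB15 and PCDHGA1, a run of 5 kb bins that each had a peak in 10 or more libraries. It was picked out after its values were seen, so it is described without a test. It is 2.74% of the length of the stretch and held 31.9% of the COLO320 DM and 13.3% of the PC3 DM summits. The only library with no peak there was PC3 DM ecSE7 replicate 1. The 5 kb bin chr5:141260001-141265000 had a peak in 18 of 18 COLO320 DM libraries and 14 of 16 from PC3 DM. Of the 362436 genome bins with a peak in any library, 296 (0.0817%) had as many libraries or more. The annotation places the long non-coding RNA LOC105378199 at chr5:141260224-141268758 and the pseudogene LOC100419552 at chr5:141259235-141260301.

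Peaks at this place held many fragments at a low fold. The best peak of a library had 39, 59 and 92 fragments at the lowest, the median and the highest in COLO320 DM, and 23, 45 and 80 in PC3 DM. Its fold had a median of 3.39 in COLO320 DM, against 3.89 in PC3 DM, below the median over all peaks of the stretch in both lines. Peaks covered 1400 ± 662 bp of the 20 kb in COLO320 DM (SD, n = 18) and 695 ± 565 bp in PC3 DM (SD, n = 16). The covered length was 1448 ± 686 bp in perturbed and 1161 ± 571 bp in vector libraries of COLO320 DM (n = 15 and 3). It was 723 ± 600 bp in perturbed and 498 ± 89.1 bp in vector libraries of PC3 DM (n = 14 and 2). The groups overlap in both lines.

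**Figure D2:**
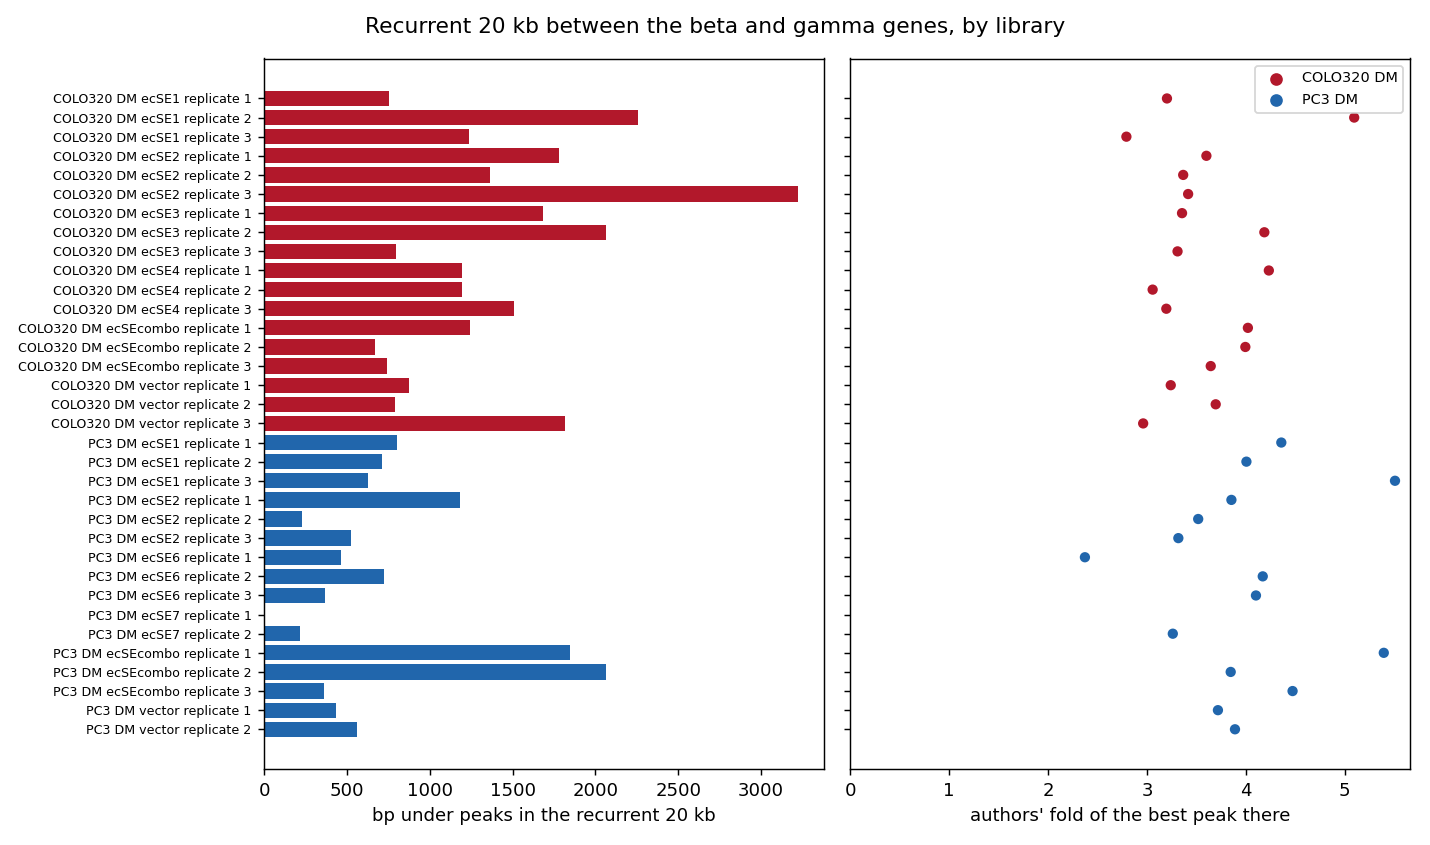
Base pairs under peaks in the recurrent 20 kb (left) and the authors' fold of the best peak there (right), 1 row per library, COLO320 DM above PC3 DM and vector rows at the foot of each line. COLO320 DM libraries cover 672 to 3222 bp, and PC3 DM libraries cover 0 to 2065 bp, with no peak in PC3 DM ecSE7 replicate 1.

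Outside this place no bin came near the recurrence of chr5:141260001-141265000, with a peak in 32 of the 34 libraries. The other bins of the 20 kb, with 10, 13 and 17 libraries, were closer to the bins outside it. Of the 147 bins of 5 kb in the stretch, 123 had a peak in any library, and 81 of them in 1 to 3 libraries. The highest outside the 20 kb was chr5:141315001-141320000, with 7 COLO320 DM and 8 PC3 DM libraries, which overlaps TAF7, a subunit of the general transcription factor TFIID that lies between the beta and gamma arrays. Next came the bin of PCDHB15, chr5:141245001-141250000, with 8 COLO320 DM and 6 PC3 DM libraries. Bins with a peak in 10 or more libraries made up 5.69% of the marked bins of the stretch and 4.13% of those of the genome.

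**Figure D3:**
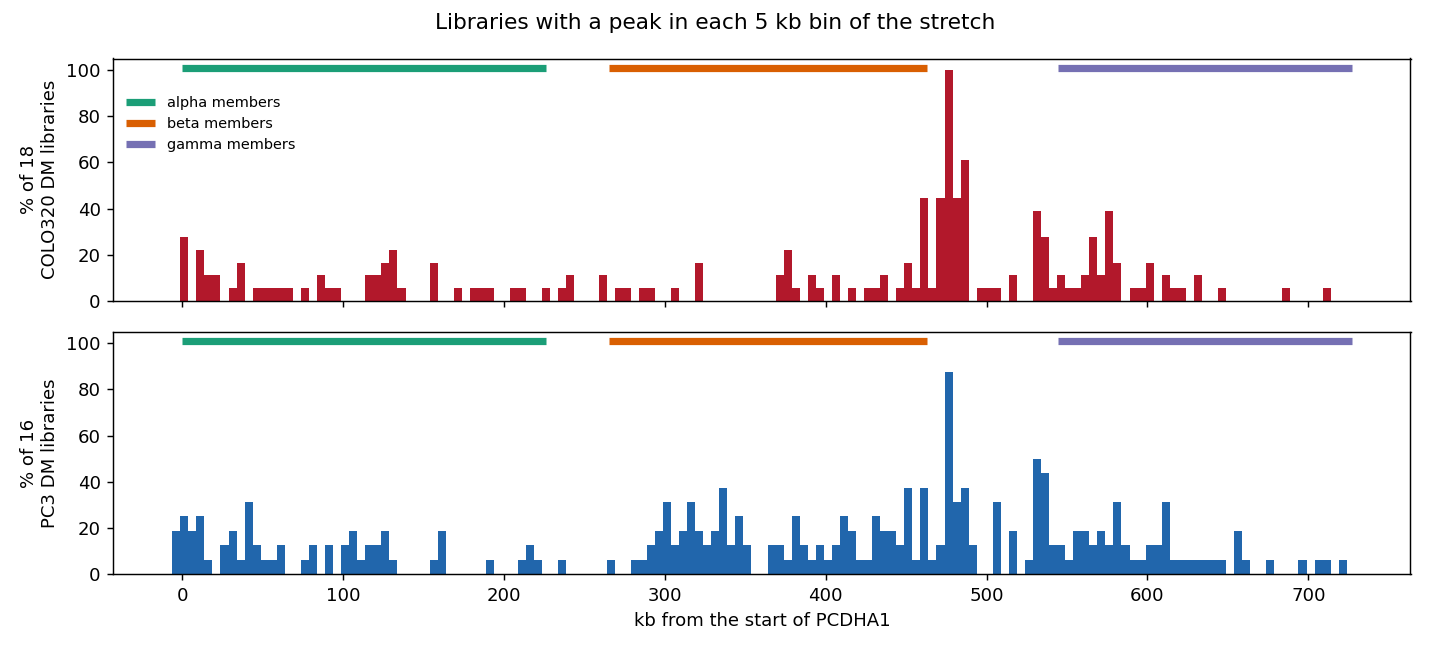
Percentage of libraries with a peak in each 5 kb bin, against the distance in kb from the start of PCDHA1, COLO320 DM above and PC3 DM below, with bars on top for the extent of each family. The tallest bar, between beta and gamma, stands for 18 of 18 COLO320 DM libraries and 14 of 16 from PC3 DM, and beta bins are filled more often in PC3 DM.

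Read along the map, the beta array was the one of the 3 whose density differed most between lines. In summits per 100 kb per library it had 1.04 in COLO320 DM, against 3.16 in PC3 DM. The variable part of the alpha array had 1.33 in COLO320 DM, against 1.82 in PC3 DM, and its constant part 0.665 in COLO320 DM, against 0.749 in PC3 DM. The gamma array had 1.07 in COLO320 DM, against 1.64 in PC3 DM. The gap between beta and gamma, which holds the recurrent 20 kb, had 5.48 in COLO320 DM, against 4.78 in PC3 DM, and the gap between alpha and beta 0.712 in COLO320 DM, against 0.160 in PC3 DM.

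Because PC3 DM lists were longer, with a median of 26526.5 peaks against 18271 in COLO320 DM, lines were compared by the share of each list, as summits per 100000 peaks, with vector and perturbed libraries pooled. The line and its transfection reagent cannot be told apart. The beta array took 0 at the lowest, 6.60 at the median and 20.5 at the highest in COLO320 DM, and 4.12, 17.8 and 27.0 in PC3 DM. The ranges overlap, but most PC3 DM libraries lie above most COLO320 DM libraries. The means were 7.11 ± 6.27 in COLO320 DM (SD, n = 18) and 16.1 ± 6.45 in PC3 DM (SD, n = 16). The difference of -9.03 passed the test (two-sided permutation test, 100000 resamples, p = 0.000300, adjusted p = 0.000900 over the 3 arrays). Without any single library it lay between -9.83 and -8.31 and still passed. In the vector libraries alone, 3 against 2, it was -16.3 with an exact permutation p of 0.200, where 0.1 is the smallest p possible.

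The differences of the alpha and gamma arrays did not pass, and whether the beta difference exceeds theirs was not tested. Alpha took 8.77 ± 6.92 summits per 100000 peaks in COLO320 DM, against 9.90 ± 4.34 in PC3 DM (permutation test, adjusted p = 0.580). Gamma took 7.38 ± 6.77 in COLO320 DM, against 8.73 ± 4.50 in PC3 DM (permutation test, adjusted p = 0.580). With all lists shortened to the best 9385 peaks, the gamma difference was -7.62 and passed (permutation test, adjusted p = 0.0154).

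The stretch as a whole took 44.9 ± 11.2 in COLO320 DM, against 48.4 ± 16.3 in PC3 DM, a difference of -3.41 that did not pass (permutation test, p = 0.50). The recurrent 20 kb, picked out after its values were seen, holds more of the COLO320 DM summits, and leaving it out moves the difference towards PC3 DM by construction, to -12.9, given without a test. The difference was also larger with peaks of -log10 q of at least 5, at -16.3 (permutation test, p = 0.0171), and with lists of equal length, at -22.7 (permutation test, p = 0.00222). The local background at these peaks moved with the line, with a median of 1.99 fragments in COLO320 DM, against 1.04 in PC3 DM, and its part in the differences was not tested.

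**Figure D4:**
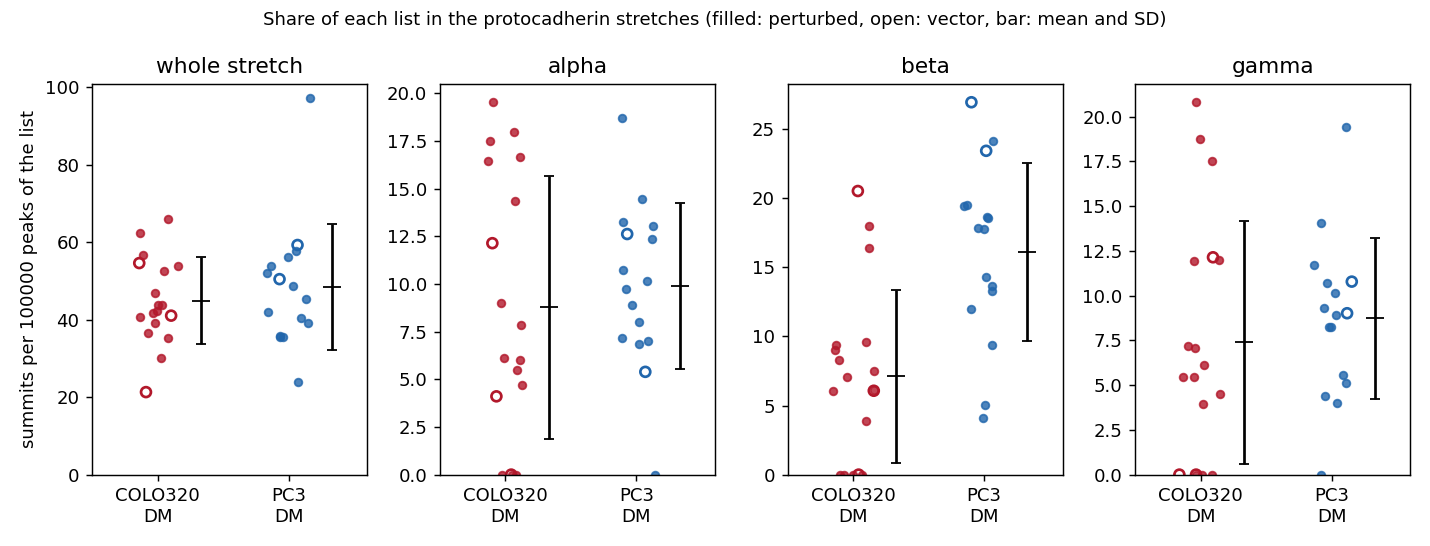
Summits per 100000 peaks of each list in the whole stretch and in the alpha, beta and gamma arrays, COLO320 DM left of PC3 DM, 1 point per library, filled for perturbed and open for vector, with the mean and SD beside them. In the beta panel the means are 7.11 in COLO320 DM, against 16.1 in PC3 DM, and in every panel the libraries of the lines overlap.

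Within the arrays, the densest windows lay past the member starts. Measured from the last member start, 23 of 35 gamma summits in COLO320 DM (65.7%), against 18 of 48 in PC3 DM (37.5%), lay 500 to 1499 bp downstream. For alpha the numbers were 12 of 50 (24.0%) in COLO320 DM, against 12 of 60 (20.0%) in PC3 DM, and for beta 13 of 37 (35.1%) and 23 of 100 (23%). All 13 of these beta summits in COLO320 DM fell between 1000 and 1499 bp. Of the 13, 8 lay in PCDHB15 and the rest in PCDHB10, PCDHB13 and PCDHB14, so most come from 1 gene. The first 499 bp held 0 alpha, 0 beta and 1 gamma summits in COLO320 DM, and 4, 2 and 0 in PC3 DM. The 4 alpha summits there come to 3.33 per 100 kb per PC3 DM library, above the 1.82 of the variable part of the array.

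The first 2500 bp of each member, which take in the long variable exon, held 30 of 35 gamma summits in COLO320 DM (85.7%), against 25 of 48 in PC3 DM (52.1%), where they make up 30.1% of the gamma array. They held 21 of 50 alpha summits in COLO320 DM (42.0%), against 16 of 60 in PC3 DM (26.7%), where they make up 16.6% of the alpha array. The beta genes from start to end, 33.0% of the beta array, held 18 of 37 beta summits in COLO320 DM (48.6%), against 36 of 100 in PC3 DM (36%), which is near their share of length. Among libraries with a gamma summit, the share was above the share of length in 12 of 13 COLO320 DM libraries and 12 of 15 from PC3 DM. The 500 bp on either side of a start are 7.26% of the stretch and held 2.42% of its COLO320 DM and 5.54% of its PC3 DM summits. Without COLO320 DM ecSE1 replicate 2 the COLO320 DM value was 0.641%, 1 of 156 summits. These positions were looked at after the map had been seen and carry no test. The members are close relatives of one another, and the sources used here do not give how reads that match several places were handled, so the member a peak is assigned to is uncertain to that extent.

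**Figure D5:**
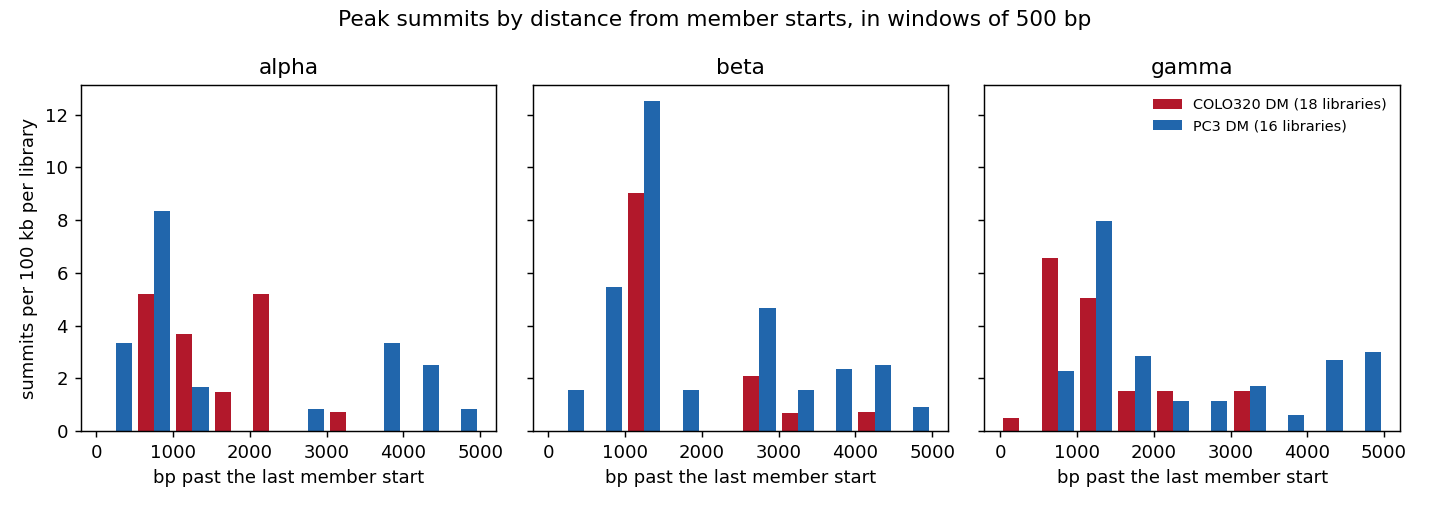
Summits per 100 kb per library in windows of 500 bp past the last member start, for the alpha, beta and gamma arrays, COLO320 DM bars left of PC3 DM bars. In every family and both lines the tallest bar lies between 500 and 1499 bp, with an equally tall COLO320 DM bar at 2000 to 2499 bp in alpha, and the first window is lower or empty.

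Member by member, marking was sporadic. Each member was given the stretch from its start to the start of the next member of its family, so that overlapping alpha and gamma genes do not share a peak. A summit in that stretch was found in a median of 4 of the 34 libraries, at most in 15, and in 0 for PCDHB9 and PCDHGC4. In all, 43 of the 53 members had a summit in their first 2500 bp in some library, 20 of them in both lines.

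Among the alpha members, PCDHA13 led with 7 COLO320 DM and 8 PC3 DM libraries, but its stretch runs to the distant PCDHAC1 and held 0.634 summits per kb over all libraries. PCDHA1, the first of the array, had 5 COLO320 DM and 5 PC3 DM libraries and 1.38 summits per kb, and PCDHA2 had 4 and 4 libraries and 1.29 per kb. In COLO320 DM all of these libraries had the summit in the first 2500 bp. PCDHA1 in PC3 DM ecSE2 replicate 2 had one of the best-ranked peaks of the stretch, 8.19-fold with 36 fragments. At the other end, PCDHA9 and PCDHA12 had 1 library of each line.

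Among the beta members, PCDHB15, the last of the array, had 3.27 summits per kb, the highest value of all members, but its stretch ends with the gene, after 3971 bp, while those of other beta members run on to the next start. Over the first 2500 bp, the same length for each member, it also had the most summits, 12, followed by PCDHGA5 with 10. It had a summit in 8 COLO320 DM and 5 PC3 DM libraries, 1 to each library, with 16 to 47 fragments and 3.41 to 6.25-fold. In 8 COLO320 DM and 4 PC3 DM libraries the summit fell in a narrow band, 1043 to 1458 bp past the start. PCDHB4 and PCDHB3 showed the opposite order of lines. PCDHB4 had 0 COLO320 DM and 8 PC3 DM libraries, and PCDHB3 had 3 COLO320 DM and 9 PC3 DM libraries, of which 0 and 5 had a summit in the first 2500 bp. PCDHB6 had 4 COLO320 DM and 9 PC3 DM libraries and PCDHB14 had 5 and 8, mostly between genes. PCDHB5 had 1 PC3 DM library.

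Among the gamma members, PCDHGA5 led with 6 COLO320 DM and 6 PC3 DM libraries and 1.97 summits per kb, at 11 to 23 fragments and 3.92 to 7.51-fold. PCDHGB1 had 5 COLO320 DM and 2 PC3 DM libraries, and its summits in the first 2500 bp lay 726 to 1040 bp past the start. PCDHGA1 had 2 and 3 libraries, PCDHGA12 had 1 and 4, and PCDHGB2 had 1 COLO320 DM library. Of the C-type members, PCDHAC1 had 3 COLO320 DM and 4 PC3 DM libraries at 0.224 summits per kb, PCDHAC2 had 5 and 5 at 0.240, PCDHGC3 had 1 PC3 DM library, PCDHGC5 had 1 and 2 libraries, and PCDHGC4 had none. Densities as low occurred among other members, with 0.067 summits per kb for PCDHB5 and 0.154 for PCDHGA12.

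Tested gene by gene, with the gene and 2 kb on each side, 0 of the 51 members that could be tested differed between lines (Fisher's exact test, adjusted p of 0.05 or less over all genes), and 7 had an unadjusted p under 0.05. Over all genes 6.99% of 10067 were called, and 26.1% had an unadjusted p under 0.05. Genes entered with a peak present in 3 libraries or more and missing from 3 or more, which left PCDHB1 and PCDHB12 out. Members had a peak less often in COLO320 DM for 48 of 51, with a median difference of -24.3 percentage points. Over all genes it was 7989 of 10067, with a median of -15.97, and PC3 DM lists are the longer ones. The overlapping alpha and gamma genes share their peaks, so these members are not independent of each other.

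PCDHB4 came nearest to a call, with a peak in 0 of 18 COLO320 DM libraries and 6 of 16 from PC3 DM (Fisher's exact test, adjusted p = 0.0601). Without COLO320 DM ecSE1 replicate 2, the longest list, it passed, with 0 of 17 and 6 of 16 libraries (Fisher's exact test, adjusted p = 0.0460). The library left out had no peak at PCDHB4. The pass came with the adjustment over all genes, which changed with that library, and not with the counts of this gene. PCDHB3 had a peak in 0 of 18 COLO320 DM libraries and 5 of 16 from PC3 DM (Fisher's exact test, adjusted p = 0.0992). PCDHA11, PCDHA12 and PCDHA13, which share most of their length, had a peak in 8 of 18 COLO320 DM libraries and 14 of 16 from PC3 DM (Fisher's exact test, adjusted p = 0.0992). By 5 kb bins, 0 of the 61 bins of the stretch that were tested passed, and 6 had an unadjusted p under 0.05. Over the genome, 3.47% of 120164 bins passed and 17.3% were below 0.05 before adjustment. With an overlap of at least 500 bp required, the bin chr5:141260001-141265000 passed, with 7 of 18 COLO320 DM libraries and 0 of 16 from PC3 DM (Fisher's exact test, adjusted p = 0.0295). At any overlap it had a peak in 18 of 18 and 14 of 16 libraries, and too few lacked one for a test. Peaks in the recurrent 20 kb had a median width of 346.5 bp in COLO320 DM, against 305.5 bp in PC3 DM. The part of width in this call was not tested.

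The perturbations left no difference in the stretch that passed a test. In COLO320 DM the share was 46.1 ± 10.2 summits per 100000 peaks in perturbed and 39.0 ± 16.8 in vector libraries (n = 15 and 3, two-sided exact permutation test, p = 0.321). The 3 vector libraries had 54.6, 21.3 and 41.1, which spans most of the perturbed range of 30.1 to 65.9. Without vector replicate 2, at 21.3, the difference of 7.13 turned to -1.72. In PC3 DM it was 47.4 ± 17.2 in perturbed and 54.9 ± 6.23 in vector libraries (n = 14 and 2, exact permutation test, p = 0.467). The 2 vector libraries, at 59.3 and 50.5, lie within the perturbed range of 24.0 to 97.2. The effects of the 2 lines differed by 14.6 (permutation test within lines, p = 0.275).

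By array, without a test, COLO320 DM had 9.44 ± 7.05 alpha summits per 100000 peaks in perturbed and 5.42 ± 6.18 in vector libraries. Its beta array had 6.75 ± 5.57 in perturbed and 8.87 ± 10.5 in vector libraries, and its gamma array 8.05 ± 6.76 in perturbed and 4.05 ± 7.01 in vector libraries (SD, n = 15 and 3). In PC3 DM the alpha array had 10.0 ± 4.43 in perturbed and 9.01 ± 5.11 in vector libraries, and the gamma array 8.56 ± 4.79 in perturbed and 9.90 ± 1.25 in vector libraries (SD, n = 14 and 2). The PC3 DM beta array had 14.8 ± 5.75 in perturbed libraries, with a highest value of 24.2 in ecSE1 replicate 1, against 27.0 and 23.4 in the 2 vector libraries. The groups overlap in each array and line.

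By plasmid, COLO320 DM means were 36.6 ± 5.74 for ecSE1, 55.0 ± 11.9 for ecSE2, 49.3 ± 11.4 for ecSE3, 42.0 ± 5.94 for ecSE4 and 47.7 ± 9.61 for ecSEcombo. PC3 DM means were 61.7 ± 31.8 for ecSE1, 43.3 ± 6.76 for ecSE2, 46.2 ± 8.66 for ecSE6, 29.8 ± 8.23 for ecSE7 and 50.3 ± 9.71 for ecSEcombo (SD, n = 3, and n = 2 for ecSE7). The wide spread of PC3 DM ecSE1 comes from replicate 2, at 97.2 in a list of 10288 peaks, without which its difference of 6.82 from the vector turned to -10.9. None of the 10 comparisons with the vector passed (two-sided exact permutation tests, adjusted p from 0.800 to 0.900). These designs cannot reach a p below 0.1, or 0.333 for ecSE7. All plasmids of a line share its vector libraries.

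Gene by gene, 0 of 33 members tested in COLO320 DM and 0 of 30 tested in PC3 DM differed between perturbed and vector libraries (Fisher's exact test, adjusted over all genes), and 0 had an unadjusted p under 0.05. Over all genes, 0% of the 4621 tested in COLO320 DM were called and 0% of the 7812 tested in PC3 DM, and 49 genes (1.06%) and 67 genes (0.858%) had an unadjusted p under 0.05. With 3 and 2 vector libraries the smallest possible unadjusted p was 0.00123 in COLO320 DM, against 0.025 in PC3 DM for genes that could be tested. PCDHB15 had a summit in its own stretch in 1 of 3 vector libraries of COLO320 DM and 2 of 2 of PC3 DM.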

How the data were processed

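CUT&Tag peaks were analysed in 34 libraries, 1 deposited list each. The submitters' processing notes name MACS2 2.2.7.1, bedtools, SAMtools, Trim Galore 0.6.6 and Bowtie2 2.3.5, and build hg38. The use of a control library and the treatment of duplicates and of reads that match several places are, in the sources used here, not given. An FDR of 0.001 and blacklist removal stand in the names of the authors' lists.

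Each deposited list gives a display score, which was not used, the authors' fold (a ratio of summit to local background), and 2 columns of -log10 values, for p and for the adjusted q-value, by which peaks were ranked and filtered. Without read totals the depth is unknown. Fragments at the summit were recovered from fold and p with a tolerance of 0.0005 in -log10 p.

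Genes came from RefSeq on GRCh38.p14. The table gives no exons, so exon and intron positions are not given. The members and lists were chosen with earlier results of these data known. Named members were the 4 with most and the 2 with fewest libraries in each family, the C-type members and any member called. Others named were chosen after their values were seen.

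Groups came from the sample titles. Shares were compared with two-sided permutation tests, densities with sign-flip tests on log2 ratios (0.5 summits added), and presence of a peak per gene or 5 kb bin with Fisher's exact test and Benjamini-Hochberg adjustment over all features tested. Alternatives were a stricter q, equal list lengths, covered length, other overlaps, bin sizes and flanks, vector libraries alone, a replicate block, the 2 lists of over 100000 peaks left out, each library left out, and the recurrent 20 kb left out (chosen after seeing the data). Same-numbered libraries did not deviate together, so numbers were not used as pairs. Tests were tested on simulated data. Software was scipy 1.17.1, numpy 2.4.6, matplotlib 3.10.9 and pandas 2.3.3 in Python 3.11.15.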

Additional observations from a re-analysis of the deposited data

How the results depend on the processing

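Of the alternatives to the results on the protocadherin stretch, 607 gave the same outcome, 6 were stronger, 1 was weaker and 24 changed sign. The same outcome means the same direction and side of the threshold, or for genes and bins an equal or similar number of calls. Most alternatives left out a single library, while most of the changes came from the others, so the total overstates how stable the results are. Values here are differences in summits per 100000 peaks, and the cause of each change was not tested. Between lines, the whole stretch gave -16.3 with -log10 q of at least 5 and -22.7 with lists of equal length, both of which passed. Without the recurrent 20 kb, which holds more of the COLO320 DM summits and was chosen after seeing the data, it was -12.9, a move that follows from that choice. Gamma gave -7.62 with lists of equal length, and beta gave -16.3 in vector libraries alone, which did not pass. One bin of the stretch was called with an overlap of 500 bp, and 0 to 1 members when each library was left out.

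The 24 changes of sign are all among the perturbed against vector results, none of which passed. With lists of equal length the difference was -1.42 for COLO320 DM and 32.7 for PC3 DM, and that between the lines was -34.1. By plasmid it was then -14.2 for COLO320 DM ecSE4, and 35.5, 28.4, 5.33 and 42.6 for PC3 DM ecSE2, ecSE6, ecSE7 and ecSEcombo. With -log10 q of at least 5 it was 5.85 in PC3 DM, with -1.58 for COLO320 DM ecSE4, and 0.485 and 10.8 for PC3 DM ecSE2 and ecSEcombo. Covered length gave -1.90 for COLO320 DM ecSE4 and -1.64 for COLO320 DM ecSEcombo. Without the recurrent 20 kb it was 1.61 for COLO320 DM ecSE1 and -1.07 for PC3 DM ecSE1. With each library left out it ranged from -1.72 to 14.9 in COLO320 DM, turning without vector replicate 2. By plasmid it then ranged from -11.2 to 5.44 for COLO320 DM ecSE1, turning without vector or ecSE1 replicate 1. It ranged from -5.83 to 10.8 for ecSE4 and -0.134 to 16.5 for ecSEcombo, both turning without vector replicate 2. In PC3 DM it ranged from -10.9 to 19.7 for ecSE1, turning without its replicate 2, and from -9.05 to 0.845 for ecSEcombo, turning without its replicate 3.

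No pairing of libraries by replicate number was seen, though the check below cannot exclude a weak one. No same-numbered pair had a correlation of deviations over 0.1 (0 of 45 pairs for COLO320 DM, 0 of 36 for PC3 DM). The mean correlation was 0.0114 in same-numbered and -0.00565 in other pairs of COLO320 DM. In PC3 DM it was -0.00202 and 0.00104. The replicate block gave -9.03 for beta between lines (permutation test, adjusted p = 0.00108) and 0.845 for PC3 DM ecSEcombo, and changed no call.

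Read totals being unknown, a list without a peak does not show that the mark is absent. The alpha and gamma genes overlap, and no gene table used here gives exons.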

Other observations

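Other protocadherins, which lie outside the cluster and are not arranged in arrays, differed widely in the number of libraries with a peak. The longest of them had the most and the shortest the fewest, with no strict order in between. The part of length was not tested. Of 12 such genes, PCDH15 had a peak in 18 of 18 COLO320 DM libraries and 16 of 16 from PC3 DM, and PCDH18 in 0 and 0. PCDH19, the only one called of 5 that could be tested, had a peak in 5 of 18 COLO320 DM libraries and 13 of 16 from PC3 DM (Fisher's exact test, adjusted p = 0.0420). The share called over all genes was 6.99% of 10067. The long genes PCDH9 and PCDH11X had a peak in 17 COLO320 DM libraries each, and in 15 and 16 PC3 DM libraries. The short genes PCDH8, PCDH12 and PCDH20 had a peak in 0 COLO320 DM libraries each, and in 2, 1 and 1 PC3 DM libraries.

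The 17 genes on either side of the stretch or in its gaps had a peak in a median of 0 COLO320 DM and 1 PC3 DM libraries, with no peak in any COLO320 DM library for 11 of them and in any PC3 DM library for 6. The most marked was TMCO6, upstream of the alpha array, in 9 COLO320 DM and 11 PC3 DM libraries (Fisher's exact test, adjusted p = 0.518). DIAPH1, a formin that builds actin filaments and lies just past the last gamma member at chr5:141515021-141619000, had a peak in 1 of 18 COLO320 DM libraries and 11 of 16 from PC3 DM (Fisher's exact test, adjusted p = 0.00949). It was the only one called of the 5 that could be tested, while over all genes 6.99% of 10067 were called. HDAC3, a histone deacetylase beyond it, had 1 COLO320 DM and 3 PC3 DM libraries (Fisher's exact test, adjusted p = 0.518). SLC25A2, a mitochondrial ornithine carrier between the beta and gamma arrays, had 2 and 3 libraries (Fisher's exact test, adjusted p = 0.809). Of 16 genes for known regulators of the cluster, among them CTCF and SETDB1, 12 could be tested and 0 were called. So few genes cannot be set apart from the 6.99% called over all genes. The 16 had a median of 1.5 COLO320 DM and 3.5 PC3 DM libraries.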
